A study of Mus musculus with 10 samples.

Results

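Genes that activate, carry, sense or answer to thyroid hormone were followed across mouse retinas, namely the deiodinases Dio2 and Dio3, the carrier Ttr, the transporter Slco1c1, the receptors Thra and Thrb with their partner Rxrg, and the response genes Klf9 and Hr. They were chosen by name, and 9 of the 25905 genes in the table are described. The choice was made knowing that Dio2 was lower in the right retina of every animal, so values of right against left describe these genes and are not tested. Total RNA was sequenced after ribosomal RNA removal from 10 retinas at postnatal day 34. They came from 5 C57BL/6J animals of wild type, mice 61, 64, 65, 66 and 68, each giving both eyes. Each animal had worn a goggle with a −20 dioptre lens over one eye since postnatal day 24, for 10 days, under a protocol that makes that eye myopic, and the fellow eye had no lens. Each label tells left from right but not which eye wore the lens, so the groups are left and right (n = 5 each), and neither is a treated group.

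Thyroid hormone reaches tissues mainly as thyroxine, a prohormone. The deiodinase encoded by Dio2 removes an outer-ring iodine and makes the active hormone triiodothyronine inside the cell, whereas the enzyme encoded by Dio3 removes an inner-ring iodine and inactivates both forms. The active hormone binds nuclear receptors that sit on DNA as dimers with retinoid X receptors. In the developing retina this pathway is known for setting the balance of short-wave and middle-wave opsin in cones.

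The values are CPM (a gene's counts scaled to a fixed library total). The steps between low values place 1 CPM at 89.6 to 113.8 counts, and the listed genes of a library summed to 321661 to 346696 CPM. The 8 rod markers, which check the labelled tissue, summed to 10300 to 12100 CPM. The left retina of mouse 68 stood apart by its skeletal muscle genes, 6 of which summed to 244 CPM against 26.4 to 32 CPM in the other 9 libraries, and the right retina of mouse 65 by its lens genes (8 genes, 765 CPM against 6.95 to 107 CPM). The labels also report that corrupted reads were removed from one raw file of the right retina of mouse 64. In such whole-tissue RNA, fewer cells of a type and less RNA per cell cannot be told apart.

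Sequence before the start sites was searched for elements known from hormone and cyclic AMP signalling, and 3 stretches that hold one are shown. RefSeq (GRCm38.p6) gave windows of 250 bases before and 50 bases after a start for 6 of the 9 genes, 8 windows in all because Thrb and Rxrg have a pair each. Dio2, the gene around which the side comparison turns, is shown for the 250 bases before its start, chr12:90739039-90739288 on the minus strand, inside the body of the lncRNA gene Gm26512 on the opposite strand. RefSeq's start, base 90739038, lies upstream of the end of the gene in the table, base 90738438. Capitals mark TGACGTCA, the element bound by cyclic-AMP-responsive factors, which begins at position −95, and TATAAA at position −30. Thrb (chr14:17660764-17660793, plus strand) and Rxrg (chr1:167618165-167618194, plus strand) are shown around AGGTCA, the half-site read by thyroid hormone receptors and retinoid X receptors, in capitals at positions −184 and −88. Both of these RefSeq starts, bases 17660960 and 167618265, lie inside the gene as the table bounds it, so the stretches do too.
Dio2: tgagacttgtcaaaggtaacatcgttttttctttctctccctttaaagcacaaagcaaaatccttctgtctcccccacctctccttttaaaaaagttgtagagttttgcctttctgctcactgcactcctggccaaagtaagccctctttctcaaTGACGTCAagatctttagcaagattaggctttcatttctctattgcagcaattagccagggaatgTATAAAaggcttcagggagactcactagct
Thrb: aggagagttgacAGGTCAagggaatagggc
Rxrg: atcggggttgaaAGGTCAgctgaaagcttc

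On both strands, TGACGTCA was present in 1.79% of the 32851 RefSeq windows and in 1 of these 8, that of Dio2. TATAAA, which does not overlap it there, was present in 13.6% of all windows and in 4 of the 8. The half-site AGGTCA was present in 16.3% of all windows and in 2 of the 8 (Thrb and Rxrg). A direct repeat of that half-site with 4 bases between, the classical thyroid hormone response element, was present in 0.0152% of all windows and in 0 of the 8. These matches describe letters and are not evidence of binding.

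Levels differed widely between the genes once divided by exon length (GENCODE M21, all exons of a gene merged). Klf9 led with a mean of 12.9 CPM per kb over the 10 libraries, followed by Thra at 8.82, Thrb at 5.10, Ttr at 4.46, Hr at 2.99, Dio2 at 1.73, Rxrg at 0.71, Slco1c1 at 0.456 and Dio3 at 0.243 CPM per kb. On this scale of level per length, the libraries of Thrb (4.65 to 5.45) lay within the range of Ttr (3.14 to 6.66), Ttr overlapped Hr (2.61 to 3.54), and Rxrg (0.569 to 0.957) met Slco1c1 (0.411 to 0.574). The other neighbours in this order did not overlap. The activating deiodinase thus stood at a higher level per length than the inactivating one in every library. Of the 9 genes, 8 had a mean of at least 1 CPM and entered the tests over all 14210 such genes, and Dio3 did not.

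Dio2 (chromosome 12, bases 90724552 to 90738438, minus strand) was at 10.7, 9.99, 9.96, 11.6 and 14.3 CPM in the left retinas of mice 61, 64, 65, 66 and 68. In the right retinas of the same mice it was at 7.28, 9.87, 8.89, 8.58 and 9.59 CPM. Every mouse was lower on the right (5 of 5), and the sides did not overlap, although the highest right value and the lowest left value lay close together. Over all tested genes, 2.01% had the lower value on the right in 5 of 5 mice, and 0.12% were lower with no overlap between sides. As Dio2 was chosen for this pattern, nothing is read from those shares.

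The change of Dio2 from left to right was −31.7% in mouse 61, −26.2% in mouse 66 and −32.9% in mouse 68, but −10.8% in mouse 65 and −1.23% in mouse 64. In mouse 64 the exact Poisson 95% intervals of the left and right values, which cover counting error only, were 9.36 to 10.7 and 9.28 to 10.5 CPM and so overlapped almost wholly, and in mouse 65 they overlapped as well. In mice 61, 66 and 68 they did not overlap. The intervals rest on rounded counts implied by the steps, with a single library per side of a mouse. They describe the values for which Dio2 was chosen and test nothing. The mean difference was −0.32 ± 0.22 (SD, n = 5) on the log2(CPM + 1) scale, with 11.3 ± 1.80 CPM for left and 8.84 ± 1.01 CPM for right retinas. The left retina of mouse 68, with the highest Dio2, was also the library with muscle genes, and skeletal muscle is known to express Dio2. Over the 10 libraries Pearson's r of Dio2 with the muscle sum was 0.683, and −0.414 without that library. Without mouse 68 the mean difference was −0.26, its sign fixed in advance because every mouse was lower on the right. Glia are the cells usually tied to Dio2 in the nervous system. The 10 Müller glia markers summed to 1010 to 1210 CPM in left and 1080 to 1170 CPM in right retinas, with 3 mice higher and 2 lower on the right. A higher mean on the right was found for 8 of the 10, beside 7111 of all 14210 tested genes. The 4 astrocyte markers summed to 8.73 to 11.3 CPM and 10.1 to 12.1 CPM, with Pax2 at most 0.0875 CPM. The 7 fibroblast genes summed to 12.5 to 17.0 CPM in left and 16.9 to 22.8 CPM in right retinas, with the higher sum on the right in 5 of 5 mice. No other cell type list examined had the same sign in all mice, and this list stands out only after that look at all of them. Of single tested genes 2.78% were higher on the right in 5 of 5 mice, a share that does not apply to a sum of genes. Of the 7, Col1a2 and Lum were higher in every mouse, and Col3a1 was higher in 2 mice. The sides of Col1a2 did not overlap (2.75 to 4.33 CPM in left and 4.37 to 5.91 CPM in right retinas). Over all tested genes, 0.169% were higher on the right without overlap. Lum averaged under 1 CPM and was not tested, and none of the 6 tested passed between sides (limma, where 0 of all tested genes did). Whether a change in cell make-up takes part in the Dio2 difference was not tested.

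**Figure D1:**
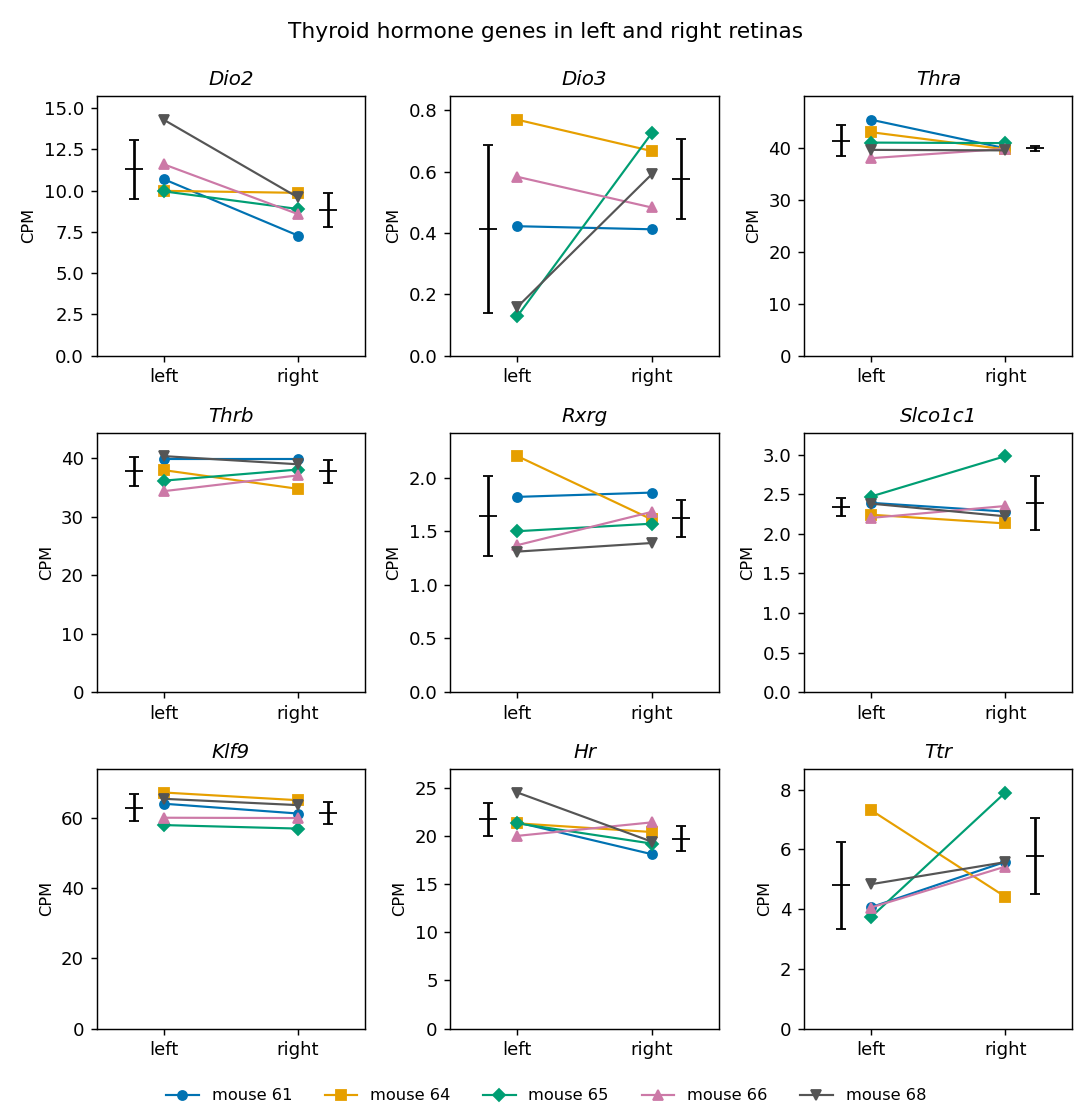
CPM of the 9 genes in the left and right retina, each line joining the retinas of 1 mouse, with the mean and SD of each side (n = 5) as black bars; every axis starts at 0. All 5 Dio2 lines run downward to the right, from 9.96 to 14.3 CPM down to 7.28 to 9.87 CPM, Klf9 lines run nearly level, and Dio3 and Ttr lines cross.

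Dio3 (chromosome 12, bases 110279068 to 110281097) was read from few counts, and its pattern was set by a pair of libraries. Left retinas held 0.422, 0.769, 0.129, 0.583 and 0.159 CPM in mice 61, 64, 65, 66 and 68, and right retinas held 0.412, 0.667, 0.725, 0.483 and 0.591 CPM. The left retinas of mice 65 and 68 were low, with 12 and 15 implied counts, and the other 8 libraries had 37 to 71. The exact Poisson 95% intervals of these low libraries (0.0666 to 0.225 and 0.0893 to 0.263 CPM) lay below those of all the others, which began at 0.290 CPM. Right values were therefore far higher than left ones in mice 65 and 68 and slightly lower in mice 61, 64 and 66, so the sides overlapped. The mean difference of 0.18 ± 0.33 (SD, n = 5) on the log2(CPM + 1) scale was smaller than its spread, and became 0.57 with 0.1 CPM added in place of 1 CPM.

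The same left retinas were low in Optc, which encodes opticin, a proteoglycan of the vitreous made by ciliary epithelium. Optc was set beside Dio3 after the values of both had been seen. Its left values were 0.505 CPM in mouse 65 and 0.606 CPM in mouse 68, and the remaining 8 libraries held 4.95 to 16.0 CPM. Over the 10 libraries, which share mice in pairs, Pearson's r of Dio3 with Optc was 0.898 and Spearman's rho was 0.733 on log2(CPM + 1), given as a description. The 6 other ciliary body and iris genes measured summed to 24.2 CPM in the left retina of mouse 65, their lowest value, but to 27.0 CPM in that of mouse 68, within the range of the other libraries (24.4 to 36.3 CPM). Pearson's r of Dio3 with that sum was 0.276. Most of the sum is Aqp1 (21.1 to 32.5 CPM), which was at 22.5 and 24.8 CPM in the left retinas of mice 65 and 68. Wfdc1 (0.225 and 0.648 CPM) and Zic1 (1.37 and 1.32 CPM) had their lowest values in those retinas. The remaining libraries held 0.779 to 1.45 CPM of Wfdc1 and 1.6 to 2.8 CPM of Zic1. The other 3 of these genes averaged under 0.5 CPM. The part of adhering ciliary tissue in the Dio3 values was not tested. The transcript Dio3os, which is read from the opposite strand beside Dio3 without overlapping it in the table, had its lowest value, 0.279 CPM, in the left retina of mouse 65 too, but held 0.468 CPM in that of mouse 68, within its range of 0.279 to 0.791 CPM.

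Ttr (chromosome 18, bases 20665280 to 20674321) encodes transthyretin, which carries thyroxine and, with retinol-binding protein, vitamin A, and which the retinal pigment epithelium makes. It was at 4.06, 7.31, 3.73, 4.05 and 4.83 CPM in the left retinas of mice 61, 64, 65, 66 and 68, and at 5.58, 4.41, 7.90, 5.42 and 5.57 CPM in the right retinas. Mouse 64 was lower on the right and the other 4 mice were higher, and the sides overlapped. Its mean difference of 0.24 ± 0.55 (SD, n = 5; log2(CPM + 1)) was within its spread. It came to 0.07 without mouse 65 and to 0.45 without mouse 64.

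Among tested genes, leaving out predicted ones with Gm or Rik symbols, the pattern of Ttr was closest to that of Rgr, which encodes an opsin of pigment epithelium and Müller glia (Pearson's r 0.957, Spearman's rho 0.903, 10 libraries in 5 pairs). Next came Gbp6 (r 0.925), Wee1 (0.925), Col8a2 (0.916) and Lamb1 (0.896). The right minus left differences of Rgr were 0.56, 0.90, 0.30 and 0.15 in mice 61, 65, 66 and 68 and −0.65 in mouse 64 (log2(CPM + 1)). Those of Ttr were 0.38, 0.91, 0.35, 0.17 and −0.62 in the same order. Of the 12 pigment epithelium genes other than Ttr, Rgr among them, 11 had a higher mean on the right, beside 7111 of all 14210 tested genes. The sum of the 12 was 68.6 to 96.1 CPM in left and 79.0 to 85.2 CPM in right retinas. Most of that sum is Otx2, which other retinal cells express. Without it the sum was 14.9 to 30.5 CPM in left and 18 to 27.3 CPM in right retinas, and only mouse 64 was lower on the right. Without Rgr as well, the 10 genes left summed to 9.03 to 22 CPM and 13.0 to 17.9 CPM, with 3 mice higher and 2 lower on the right, and Pearson's r of Ttr with that sum was 0.598. The defining genes Rpe65 and Lrat were present in every library, Best1 was at most 0.131 CPM, and the part of pigment epithelium RNA in the Ttr values was not tested.

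**Figure D2:**
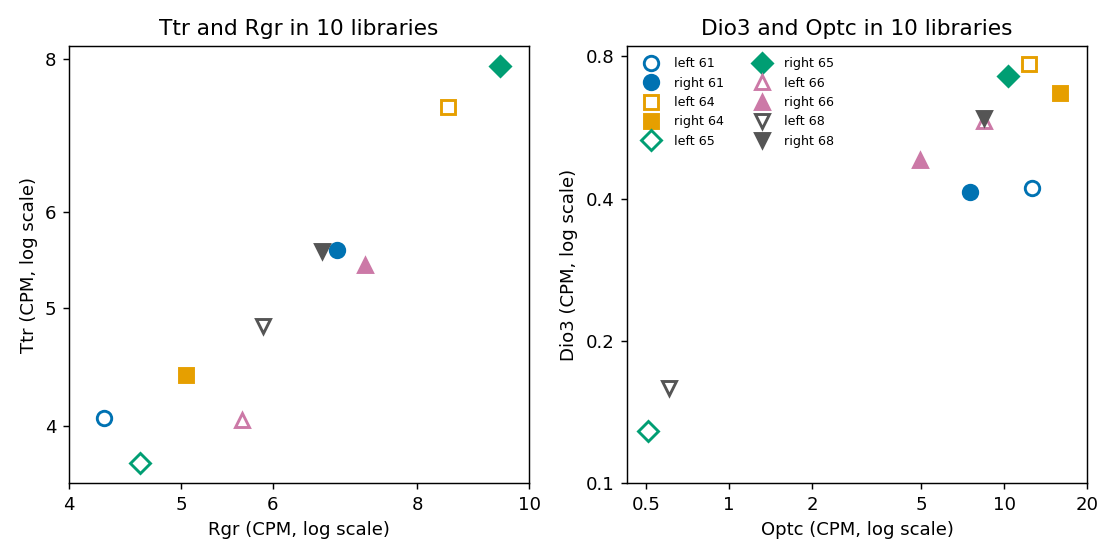
Ttr against Rgr and Dio3 against Optc in CPM on log axes, 1 point per library, open for left and filled for right retinas, with colour and shape for the mouse. Ttr and Rgr lie along a line with the right retina of mouse 65 at its top (7.90 and 9.44 CPM), and the left retinas of mice 65 and 68 lie apart at low Dio3 (0.129 and 0.159 CPM) and low Optc.

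Slco1c1 (chromosome 6, bases 141524368 to 141570177), a thyroxine transporter of brain vessels and glia, lay in a narrow range. Left retinas held 2.20 to 2.47 CPM (median 2.38) and right retinas 2.13 to 2.98 CPM (median 2.28). The right retina of mouse 65 alone was above 2.47 CPM. Its mean difference was 0.02 ± 0.11 (SD, n = 5; log2(CPM + 1)), with 2 mice higher and 3 lower on the right. The 8 endothelial genes summed to 79.4 to 86.1 CPM in left and 75.8 to 89.5 CPM in right retinas. Their sum had a Pearson's r of 0.00 and a Spearman's rho of −0.527 with Slco1c1 (10 libraries in 5 pairs).

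Thra and Thrb were, with Klf9, the genes of the set with the smallest spread. Thra (chromosome 11, bases 98740638 to 98769006), the receptor found in most tissues, was at 45.4, 43.0, 41.0, 38.0 and 39.6 CPM in the left retinas of mice 61, 64, 65, 66 and 68 and at 39.9, 39.7, 40.9, 39.8 and 39.5 CPM in the right. The right values lay within a narrow band and inside the left range. Its coefficient of variation over the 10 libraries was 5.21%, against a median of 9.02% for all tested genes, and its mean difference was −0.05 ± 0.10 (SD, n = 5; log2(CPM + 1)). Exons at the end of Thra overlap those of Nr1d1, a clock gene read from the other strand, over 263 bases, and Nr1d1 was at 19.4 to 24.2 CPM. The kit kept strand, but whether the counting did is not given in the sources used here, so reads of that stretch may belong to either gene.

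Thrb (chromosome 14, bases 17660261 to 18038090) gives rise, from separate starts, to the broad receptor form and to the form that cones and pituitary use. It was at 39.9, 38.0, 36.2, 34.4 and 40.4 CPM in the left retinas of mice 61, 64, 65, 66 and 68 and at 39.9, 34.8, 38.1, 37.1 and 39.0 CPM in the right. The sides overlapped almost fully, with a mean difference of 0.00 ± 0.09 (SD, n = 5; log2(CPM + 1)) and a coefficient of variation of 5.61%. The table gives 1 value per gene, so the forms are not separated.

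Rxrg (chromosome 1, bases 167598384 to 167639623), the retinoid X receptor that mouse cones express, was at 1.82, 2.20, 1.5, 1.37 and 1.31 CPM in the left retinas and at 1.86, 1.61, 1.57, 1.68 and 1.39 CPM in the right, in the same order of mice. The left retina of mouse 64 was the highest, and the sides overlapped. Mouse 64 was lower on the right (−0.30) and the other 4 mice were higher, by 0.02 in mouse 61 up to 0.18 in mouse 66, with a mean difference of 0.00 ± 0.18 (SD, n = 5; log2(CPM + 1)). The 9 cone markers summed to 236 to 283 CPM in left and 213 to 259 CPM in right retinas. The pattern of Thrb over the libraries was nearer to that sum (Pearson's r 0.79) than that of Rxrg was (r 0.26), as a description over 10 libraries in 5 pairs. No other cell type sum was set beside Thrb, so this r is not shown to be particular to cones. The rod sum, like the cone sum, was lower on the right in mice 61 and 64 and higher in mice 65 and 66.

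Of the response genes, Klf9 (chromosome 19, bases 23141226 to 23168134), a zinc finger factor induced by thyroid hormone and by glucocorticoids, was the most abundant. It was at 64.2, 67.4, 58.1, 60.2 and 65.6 CPM in the left retinas and at 61.4, 65.2, 57.1, 60.1 and 63.8 CPM in the right retinas of mice 61, 64, 65, 66 and 68. All 5 mice were lower on the right, but by little, −0.03 ± 0.02 (SD, n = 5; log2(CPM + 1)), and the sides overlapped. With Dio2 it made 2 of the 8 tested genes of the set that were lower on the right in all mice, beside 2.01% of all tested genes, a share from which nothing is read since the choice of genes used this contrast. Its mouse means ran from 57.6 CPM in mouse 65 to 66.3 CPM in mouse 64.

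Hr (chromosome 14, bases 70552212 to 70573548), the hairless corepressor that binds thyroid hormone receptors and is itself induced by the hormone in brain, was at 21.4, 21.3, 21.3, 20 and 24.5 CPM in the left retinas and at 18.1, 20.4, 19.2, 21.4 and 19.4 CPM in the right. Mouse 66 was higher on the right and the other 4 mice were lower, and the sides overlapped. The mean difference was −0.13 ± 0.16 (SD, n = 5; log2(CPM + 1)), smaller than its spread. The left retina of mouse 68, the library with muscle genes, was highest for Hr as for Dio2, and without mouse 68 the difference of Hr was −0.08. Leaving out that library alone must give the same value, because mouse is a block and its right retina then has no partner. The part of muscle RNA in the Hr difference was not tested, and the mice with the widest difference were 61 and 68 for both genes.

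**Figure D3:**
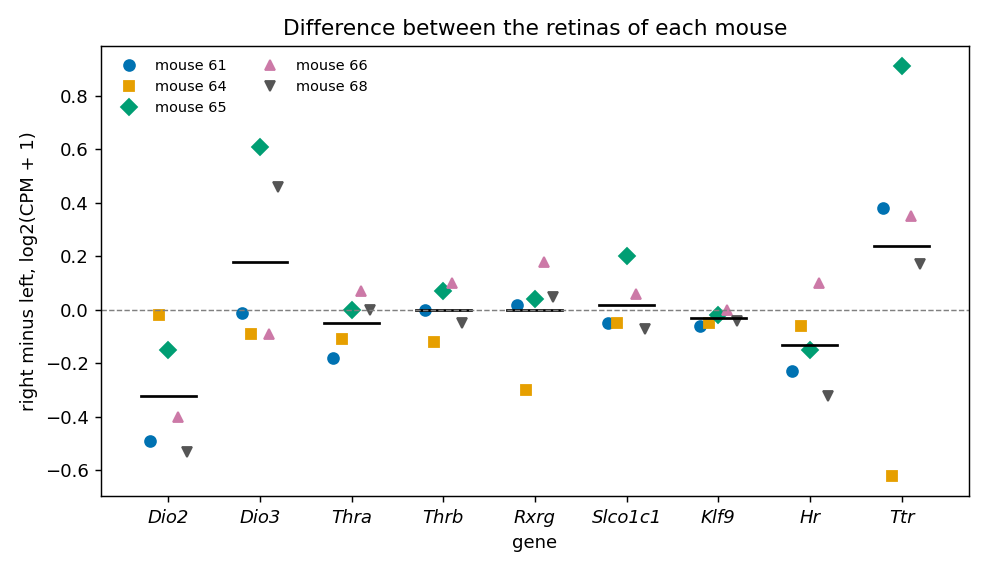
Right minus left on the log2(CPM + 1) scale for the 9 genes, 1 point per mouse, with the mean as a black line. All points of Dio2 lie below 0, from −0.53 in mouse 68 to −0.02 in mouse 64, those of Thra, Thrb and Klf9 lie close to 0, and those of Ttr run from −0.62 in mouse 64 to 0.91 in mouse 65.

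Differences between mice were independent of the side contrast and could be tested. In the moderated F-test of limma for mouse, none of the 8 tested genes passed (adjusted p from 0.266 for Klf9 to 0.921 for Ttr). Over all genes 81 passed, or 0.57%. Before adjustment 1 of the 8 genes, Klf9, was under the threshold of 0.05, as were 13.8% of all tested genes. Without mouse 61 the count over all genes was 23, without mouse 66 it was 53 and without mouse 68 it was 39, and none of the 8 passed in any of these fits. The range of mouse means of Dio2 was 0.37 on the log2(CPM + 1) scale, with mouse 68 highest and mouse 61 lowest. Mouse 68 was highest by its left retina (14.3 CPM), the library with muscle genes. Its right retina (9.59 CPM) was below that of mouse 64 (9.87 CPM). The levels of these genes were thus not shown to differ between animals, which does not show that they were alike.

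Genes of like pattern were ranked by Pearson's r of log2(CPM + 1) over the 10 libraries, as a description. Predicted genes with Gm or Rik symbols were left out. Closest to Dio2 were Tpbgl (r 0.899), Nfs1 (0.894), Zhx2 (0.879), Tbc1d4 (0.848) and Tpm1 (0.848). Without the left retina of mouse 68 these were 0.827, 0.78, 0.839, 0.758 and 0.739. Closest to Klf9 were Bicdl1 (0.921), Slc31a2 (0.903), Txnip (0.893), Chrm1 (0.884) and Rasgrf2 (0.874). The lncRNA gene Gm26512, whose body overlaps 238 bases of Dio2 as the table bounds it, on the other strand, was at 0.212 to 0.443 CPM, far under Dio2, and its r with Dio2 was 0.311.

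The wider pathway was read from 54 other genes in 9 lists, of which 53 were measured and 46 tested. None of the 46 passed between right and left, where 0% of all tested genes passed (limma, adjusted p = 0.9996 for those named here), and 0 had an unadjusted p under 0.05, beside 2.34% of all tested genes. Of the 46, 24 had a higher and 22 a lower mean CPM on the right, beside 7111 higher and 7099 lower over all tested genes. The counts for each list below are of the same kind. The median difference was 0.005 log2 units (all tested genes: 0.002). The lowest and highest differences were −0.11 and 0.11. Between mice none of the 46 passed either (adjusted p from 0.13 to 0.918).

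Other transporters that can move the hormone gave 3 higher and 3 lower among 6 tested. Slco4a1, an organic anion transporter, was at 28.7 ± 6.36 CPM in left and 28.5 ± 3.49 CPM in right retinas (SD, n = 5 each, here and for the genes that follow), and Slc3a2, the heavy chain shared by amino acid exchangers, at 18.9 ± 2.33 and 20.3 ± 1.1 CPM. Crym, which encodes a cytosolic protein that binds triiodothyronine, was at 4.48 ± 0.715 and 4.09 ± 0.68 CPM, and the sulfotransferase gene Sult1a1 at 1.02 ± 0.156 and 1.19 ± 0.542 CPM. On the log2(CPM + 1) scale, each of these genes had a mean right minus left difference smaller than the SD of that difference over the 5 mice. Dio1, the liver and kidney deiodinase, was at or near 0 in all libraries, with at most 0.0325 CPM.

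None of the genes that control the life of the DIO2 protein or its making passed between sides. Usp33, a deubiquitinase that rescues DIO2 from degradation, was at 122 ± 6.63 and 125 ± 1.89 CPM on the left and right, and March6, a ubiquitin ligase that marks it, at 30.9 ± 1.38 and 31.6 ± 1.79 CPM. All 4 genes of that list had a higher mean CPM on the right, while their log2 differences ran from 0.00 to 0.05. Deiodinases contain selenocysteine, and of 6 genes that insert this amino acid 4 had a higher and 2 a lower mean CPM on the right, with Secisbp2 at 13.6 ± 1.23 and 13.4 ± 0.824 CPM and Pstk at 11.6 ± 0.67 and 11.8 ± 0.69 CPM.

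The other dimer partners, Rxra (17.9 ± 2.30 and 16.8 ± 1.81 CPM) and Rxrb (9.70 ± 1.43 and 9.25 ± 0.795 CPM), had lower means on the right, neither beyond its spread. Corepressors gave 4 higher and 2 lower among 6, with Ncor1 at 113 ± 5.19 and 112 ± 5.07 CPM and Tbl1xr1 at 32.3 ± 0.988 and 33.4 ± 0.917 CPM. Coactivators gave 2 higher and 7 lower among 9, with Ncoa2 at 89.7 ± 3.10 and 90.6 ± 2.75 CPM and Ncoa1 at 73.9 ± 1.55 and 75.8 ± 2.75 CPM. Both of these, named as the most abundant of their list, are the 2 that were higher. Of the 7 lower ones Med24, a Mediator subunit named here after its values were seen, was farthest from 0, at 34.9 CPM in left and 32.3 CPM in right retinas on average (−0.10 log2 units). Among the corepressors Tbl1x, named in the same way, was farthest, at 29.4 and 31.2 CPM (0.08 log2 units). None of these passed.

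Among 12 further response genes, 9 were tested, 5 with a higher and 4 with a lower mean on the right. Reln, an extracellular guidance protein, was at 125 ± 12.4 and 127 ± 2.60 CPM, and Homer1, a scaffold of synapses, at 28.0 ± 2.76 and 27.5 ± 2.61 CPM. Thrsp, a lipogenic gene named for its response to thyroid hormone and singled out here after its values were seen, was the one gene of the 46 with the same sign in all mice. It was at 3.60, 3.75, 3.56, 3.37 and 3.28 CPM in the left retinas and at 4.05, 4.06, 4.06, 3.75 and 3.41 CPM in the right retinas of mice 61, 64, 65, 66 and 68. The right value exceeded the left in 5 of 5 mice, with a mean difference of 0.11 log2 units (SE 0.06, 95% interval −0.02 to 0.24, limma adjusted p = 0.9996), while the sides overlapped. Over all tested genes 2.78% were higher on the right in 5 of 5 mice.

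The opsins whose balance the hormone sets in developing cones did not pass between sides. Opn1mw, the middle-wave opsin, was at 30.4, 30.7, 23.7, 24.7 and 26.0 CPM in the left retinas and at 29.4, 22.7, 26.5, 27.3 and 26.3 CPM in the right, higher on the right in 3 mice. Opn1sw, the short-wave opsin, held 81.1 to 128 CPM in left (median 91.7) and 81.2 to 109 CPM in right retinas (median 94.8), also higher on the right in 3 mice. In mice 61 and 64 both opsins were lower on the right, and in mice 65, 66 and 68 both were higher. The intervals of the side difference were −0.20 to 0.14 for Opn1mw and −0.14 to 0.16 for Opn1sw (limma, 95%, log2 units), each spanning 0.

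**Figure D4:**
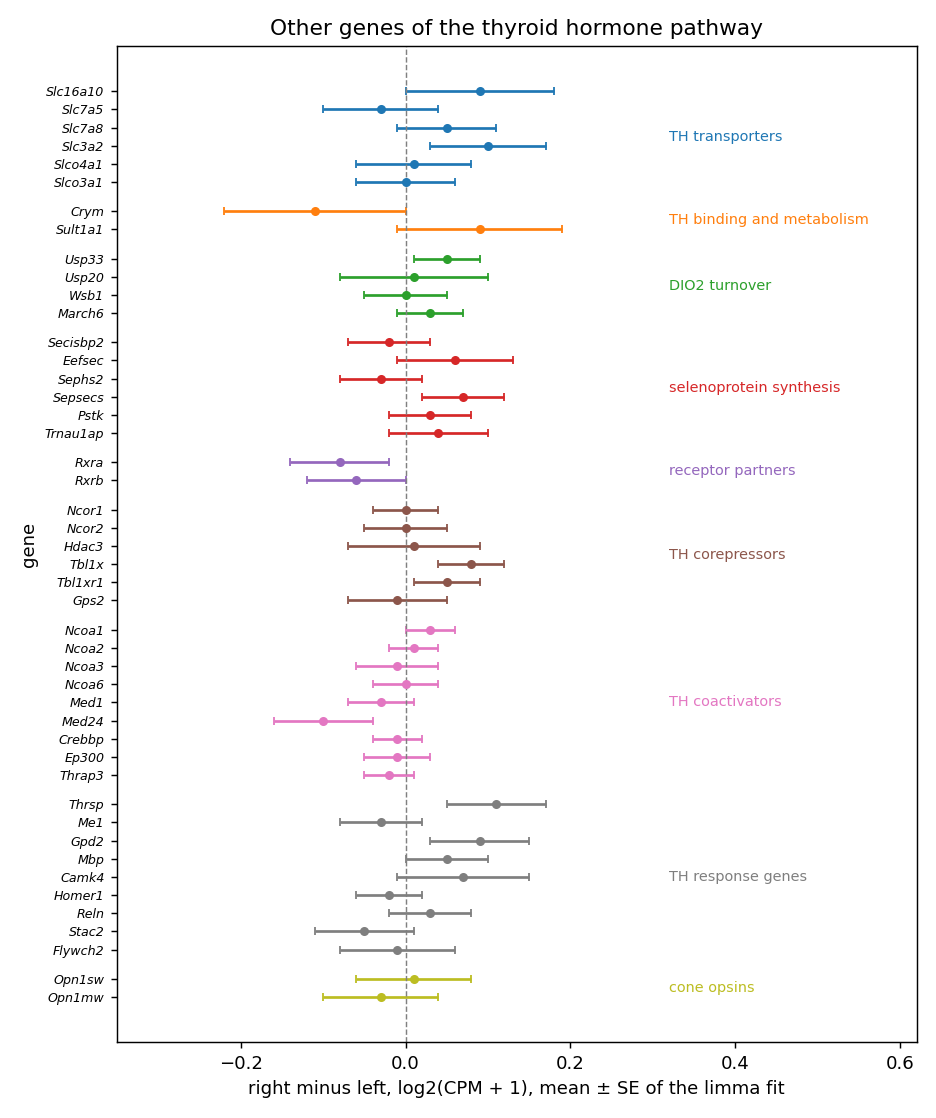
Right minus left on the log2(CPM + 1) scale for the 46 tested genes of the wider pathway, grouped by list, as the estimate and SE of the limma fit over 5 mice. All estimates lie between −0.11 and 0.11, none passed over all genes, and Thrsp is among the farthest above 0.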

How the data were processed

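The deposited table gives 1 value per gene and library. Its unit was read from the values: the authors deposited CPM with 0.0001 added, which was taken off here. Per the submitters' processing notes, STAR and Partek were used with GRCm38 (mm10); the counting rule is not given in the sources used here. Ends of genes are printed 1 base before the deposited stop. The value of 1 count was searched between 0.008 and 0.0125 CPM; 90.6% to 91.7% of values up to 20 steps were whole within 0.1, too few to treat as reads, so no count test was run as the main test and implied counts are rounded.

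Values were analysed as log2(CPM + 1), which understates changes of weakly expressed genes. Genes averaging 1 CPM or more over the libraries (14210) were fitted with limma 3.58.1 (R 4.3.3), side and mouse as terms, trended variances, two-sided, Benjamini-Hochberg over all genes, threshold 0.05. The mouse is a block because the paired retinas come from 1 animal; deviations of paired retinas correlated at 0.607, 0.143, 0.166, 0.172 and 0.311 in mice 61, 64, 65, 66 and 68. Differences of the 9 genes are plain means over mice. On simulated data the fit recovered most of the set changes, all of which were larger than the mean difference of Dio2. Recovery at the size of the right minus left differences of these genes and pathway lists was not simulated. The share of false calls was above the threshold between mice and slightly so between sides. Named beside the 9 genes are the 2 most abundant genes of each pathway list, both opsins, any gene that passed, genes overlapping a member, and the 5 genes (predicted Gm and Rik genes left out) most like Dio2, Ttr and Klf9. The genes and lists were chosen with earlier results of these data known. Alternatives tried were pseudocounts of 0.1 and 5 CPM, no filter, other scalings (TMM, quantile), no mouse block, limma-voom on implied counts, and leaving out each mouse.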

Additional observations from a re-analysis of the deposited data

Results flagged for a closer look

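Within each side, 90 sets of 5 libraries were examined for a value far from the other 4 (Dixon's test), and 9 stood out, where chance gives about 1 in 20. Thra in the right retina of mouse 65 was at 40.9 CPM against 39.5 to 39.9 CPM, a small gap in a narrow set. Slco1c1 in the same library was at 2.98 CPM against 2.13 to 2.35 CPM. Secisbp2 was low in the left retina of mouse 68, at 11.5 CPM against 13.7 to 14.4 CPM. Opn1sw was high in the left retina of mouse 61, at 128 CPM against 81.1 to 92.5 CPM. The cone markers summed to 213 CPM in the right retina of mouse 64, against 248 to 259 CPM. The endothelial genes were lowest in both retinas of mouse 61, at 79.4 CPM on the left (84.7 to 86.1 CPM in the others) and 75.8 CPM on the right (86.0 to 89.5 CPM). The lens genes of the right retina of mouse 65 (765 CPM) and the muscle genes of the left retina of mouse 68 (244 CPM) stood farthest out.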

How the results depend on the processing

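The mean difference of Dio2 was below 0 in 13 of 13 alternatives, from −0.39 to −0.23, the latter with a pseudocount of 5 CPM. Among these, leaving out only the left retina of mouse 68 repeats the side difference without mouse 68. Dio2 was chosen for being lower on the right in every mouse. The sign was therefore fixed with a mouse left out, another pseudocount, no filter or no mouse block, and nothing is read from it. Leaving out a mouse gave −0.39 to −0.26. Without the mouse as a block it was −0.32, and right against left gave 0 calls over all genes with or without the block and in the other alternatives (188 to 856 genes at an unadjusted p under 0.05 in limma). Of the other 8 genes, only Dio3 moved by more than its spread in an alternative, to 0.57 with a pseudocount of 0.1 CPM. The count of genes differing between mice (81) ran from 23 to 88 when a mouse was left out, and was 27 without the left retina of mouse 68, a fit added after seeing the data. Fewer libraries were then fitted. None of the 8 tested genes passed between mice in any of 12 alternatives. Depth limits Dio3, at 12 to 71 implied counts a library. With 5 pairs an exact two-sided sign-flip test cannot give a p below 0.0625. Retinas of 5 animals are the replicates.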
